A study of Mus musculus with 9 samples.

Results

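The 39 genes described here are mouse imprinted genes, a list of symbols that covers the best-studied imprinted loci, and each was looked up by its gene name in the deposited count table. Of the 39, 38 were found among the 50813 genes of the table, while Zrsr1 was not found under that symbol. An imprinted gene is expressed mainly from either the maternal or the paternal chromosome copy, because DNA methylation laid down in the germ line marks a control region on only one of them. Most imprinted genes lie in clusters that share a control region, and the mark is kept through cell division by the maintenance methyltransferase Dnmt1 with Uhrf1, Zfp57 and Trim28. Many of these genes act on fetal growth, the placenta and metabolism, and altered expression of imprinted genes is common in tumors and in cultured cells. Read counts per gene do not tell the parental copies apart, so every value is a total over both.

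RNA-seq was done on LLC (Lewis lung carcinoma) mouse cells cultured in DMEM with fetal bovine serum. The WT group and the CD47 KO clones E3 and E5 had 3 libraries each, which the study's methods call independent biological replicates. Each KO line grew from a single cell after electroporation of Cas9 ribonucleoproteins with a guide against the Cd47 coding sequence, and the series describes the WT cells as clonal too. Because WT is 1 line and every KO line 1 clone, clone and genotype cannot be told apart, and the p-values measure the spread between cultures of a line. Total counts per library ran from 47574047 to 49621282 in WT cells, from 44257404 to 48672040 in clone E3 and from 47378308 to 55095219 in clone E5. Levels are given as CPM, each count scaled to the same library size, computed with the TMM method.

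Marker genes were read to see what kind of cell the libraries hold. Of 12 lung epithelial markers, 7 had 0 counts in all 9 libraries, among them the lineage factor Nkx2-1, the surfactant genes Sftpa1, Sftpb, Sftpc and Sftpd, and Epcam, and the most abundant was the keratin Krt18. The 12 genes summed to 451 to 459 CPM in WT libraries, 128 to 199 in clone E3 and 896 to 958 in clone E5, nearly all of it Krt8 and Krt18. All 8 mesenchymal markers passed the filter on low counts, with Vim the most abundant, and they summed to 6354 to 6885 CPM in WT cells, 6739 to 7823 in clone E3 and 7805 to 9140 in clone E5. Immune markers summed to at most 3.47 CPM in any library, most of it Cd68, with Ptprc, Itgam and Cd3e at 0 to 2 counts. Lyz2 had 11, 19 and 7 counts in WT cells, 16, 21 and 17 in clone E3 and 0, 1 and 2 in clone E5, and was called lower in clone E5 against WT (-3.49, adjusted p = 0.00483) and against clone E3 (-4.05, adjusted p = 0.000953). Lyz2 reached the level of that filter in clone E3 only, the line where it was highest, so nothing is read from these calls. The 4 endothelial markers summed to at most 0.253 CPM. Immune and endothelial RNA was therefore near 0 in every library. Krt8, Krt18 and Krt19 were called lower in clone E3 (log2 fold changes of -2.33, -1.08 and -1.45), and Krt18 was called higher in clone E5 (1.08). Krt19 had 16, 14 and 15 counts in WT cells and 3, 7 and 6 in clone E3, where it did not reach the filter's level, so nothing is read from its call there. Of these calls in clone E3, that of Krt18 was lost with upper-quartile scaling (-0.99) or without replicate 2 of clone E3 (-0.92), and that of Krt19 without WT replicate 1 (adjusted p = 0.0535), WT replicate 3 (0.0536) or replicate 1 of clone E3 (0.0589). The mesenchymal sum was mostly Vim, which was not called in either clone. Col1a2 (1.41) and Pdgfrb (2.07) were called higher in clone E3, Col1a1 (-1.45) and Pdgfrb (-2.07) lower in clone E5, and 4 of the 8, Col1a1, Col1a2, Pdgfra and Pdgfrb, lower in clone E5 than in clone E3. The call of Col1a2 in clone E3 was lost without WT replicate 1 (adjusted p = 0.0635) or 2 (0.0695). Col1a2 had 42, 48 and 21 counts in clone E3 and 11, 7 and 8 in clone E5. It reached the filter's level in WT cells and clone E3 but not in clone E5, so nothing is read from its call between the clones. The part of these keratin, mesenchymal and Lyz2 differences in the results below was not tested.

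Cd47 was read first as a check of the labels. It was at 187, 179 and 182 CPM in the WT libraries, at 47.4, 36.8 and 49.6 in clone E3 and at 15.5, 18.6 and 18.1 in clone E5. Every KO library was thus under every WT library, as the labels say, with clone E5 under clone E3. Against WT its log2 fold change came to -2.03 ± 0.13 (SE) in clone E3 (adjusted p = 4.9e-06) and -3.39 ± 0.14 in clone E5 (adjusted p = 1.07e-07), from the quasi-likelihood F test of edgeR, with p adjusted by Benjamini-Hochberg over all genes tested. These are levels of RNA and not of protein. In bulk RNA, fewer cells expressing a gene and less RNA per cell cannot be told apart, which holds for every gene here.

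Replicate 3 of clone E3 stood apart from its own group. The median absolute log2 ratio of gene levels between it and replicates 1 and 2 was 0.366 and 0.401, while no other pair within a group exceeded 0.165. The difference followed gene length: against the mean of replicates 1 and 2, the median log2 ratio was 0.366 for genes with up to 3204 bases of exon, the shortest of 4 equal groups, and -0.395 for those with at least 8763, the longest. In the other 8 libraries the same medians stayed between -0.0488 and 0.0505. Among the imprinted genes it read lower by over 0.5 on the log2 scale for 5 of 19, which were Ppp1r9a (-1.19), Igf2r (-1.12), Peg3 (-1.08), Peg10 (-0.88) and Grb10 (-0.63). Mkrn3, which has the shortest exon length of the 19, read higher there by 1.02. The trend did not hold for each gene, since 5 of the 11 imprinted genes in the longest group read higher in that library, Sgce (0.429), Gnas (0.336), Snrpn (0.298), Kcnq1ot1 (0.253) and Airn (0.0562).

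Beside 14593 of all 50813 genes in the deposited data, 19 of the 39 listed genes had enough counts to be tested. Another 10 had 0 counts in all 9 libraries, which allows up to 3 counts per library. They were Igf2, Cdkn1c, Ascl2, Slc22a3, Dlk1, Meg3, Rtl1, Dio3, Nnat and Nap1l5. The 0 counts of Nnat and Nap1l5 are uncertain, because all 2445 bases of Nnat lie under Blcap (18513 counts over the 9 libraries) and all 1844 of Nap1l5 under Herc3 (2469 counts), on the other strand, and the strand setting of the counting is not given. H19, Slc22a18, Rian, Mirg, Zim1 and Zdbf2 never exceeded 3 counts. Phlda2, Plagl1 and Magel2 exceeded 3 counts in at least 1 library and were not tested. Passing the filter was itself uneven, since 15 of the 19 reached the filter's level in all 3 lines, Ndn only in WT cells, Asb4 only in clone E3, Mkrn3 in WT cells and clone E3, and Kcnq1 in WT cells and clone E5. Ndn and Asb4 therefore had to differ between lines to be tested at all, and the counts of genes called below describe the 19 and not all members.

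Levels between genes were compared as CPM per kb of exon, with exon lengths from the GENCODE annotation of GRCm39. In WT cells the order ran from Gnas at 84.0 and Igf2r at 44.8 through Grb10 at 19.8, Peg10 at 9.60 and Copg2 at 7.49, with no overlap between these neighbors over the 3 libraries. Peg3 at 3.71 and Impact at 3.70 overlapped. Snrpn at 1.35, Sgce at 1.14, Peg13 at 0.841 and Airn at 0.558 followed, each without overlap with the one before, and Mest, Ndn and Mkrn3, at 0.382, 0.368 and 0.350, overlapped with each other. Kcnq1, Usp29, Ppp1r9a, Kcnq1ot1 and Asb4 averaged below 0.1. The imprinted genes together took 0.169% to 0.237% of all counts of a library, mostly through Gnas and Igf2r.

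**Figure D1:**
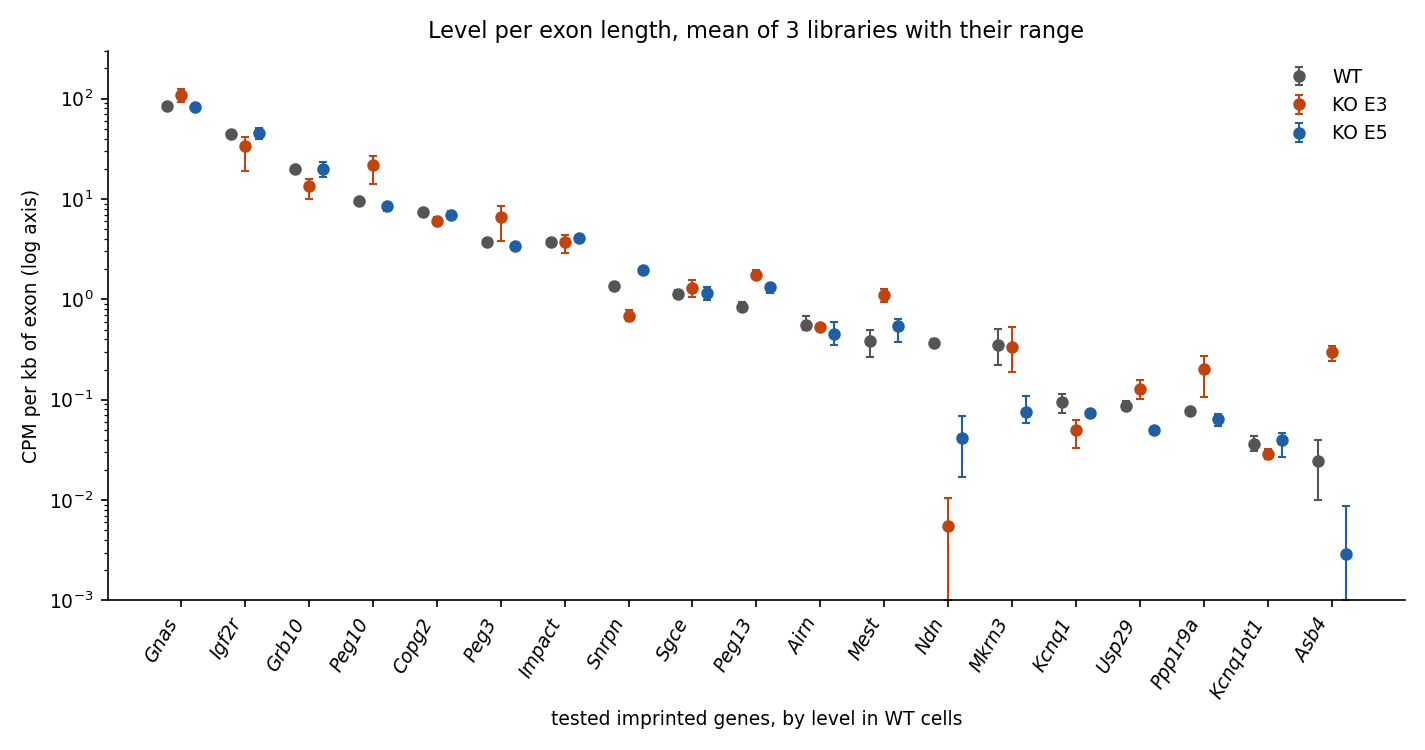
Level of each tested imprinted gene in CPM per kb of exon on a log axis, in WT cells, clone E3 and clone E5. Points are means of 3 libraries and bars their lowest and highest value, cut at the axis floor where a library had 0 counts. Gnas at 84.0 and Asb4 at 0.0245 mark the ends in WT cells.

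A gene was called when its adjusted p was under 0.05 and its absolute log2 fold change above 1. In clone E3 against WT, 5 of the 19 genes were higher, where 5.43% of all 14593 tested genes were, and 1 was lower, where 4.39% were. In clone E5 against WT, 0 were higher (2.69% of all tested genes) and 2 were lower (5.52%). At an unadjusted p under 0.05, edgeR had 2 of the 19 higher (15.3% of all tested genes) and 4 lower (18.3%) in clone E5, and DESeq2 called 0 higher and 3 lower. With clone E5 set directly against clone E3, 2 were higher (3.49% of all tested genes) and 6 lower (7.52%). The median log2 fold change over the 19 was 0.01 in clone E3, -0.10 in clone E5 and -0.23 between the clones, against 0.01, 0.00 and -0.01 over all tested genes. Genes expressed from the paternal copy made up 12 of the 19, of which 3 were higher and 1 lower in E3 and 2 lower in E5, and genes expressed from the maternal copy 5, with 2 higher in clone E3, Ppp1r9a and Asb4. These counts include Asb4 among the higher genes in clone E3, Ndn among the lower genes of both clones and Mkrn3 among the lower genes of clone E5. Between the clones they include Ndn among the higher genes and Asb4 and Mkrn3 among the lower. Asb4 and Ndn each reached the filter's level in 1 line only, and Mkrn3 in WT cells and clone E3 only. Nothing is read from the share of these genes in the counts. The comparisons with WT share the WT libraries, so their values are set side by side only. Without replicate 3 of clone E3 the calls were 6 higher and 2 lower in clone E3, 3 lower in clone E5, and 2 higher and 7 lower between the clones, because Peg3 and Snrpn passed the fold threshold in clone E3, Asb4 passed the adjusted p in clone E5 and Peg3 passed the fold threshold between the clones.

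**Figure D2:**
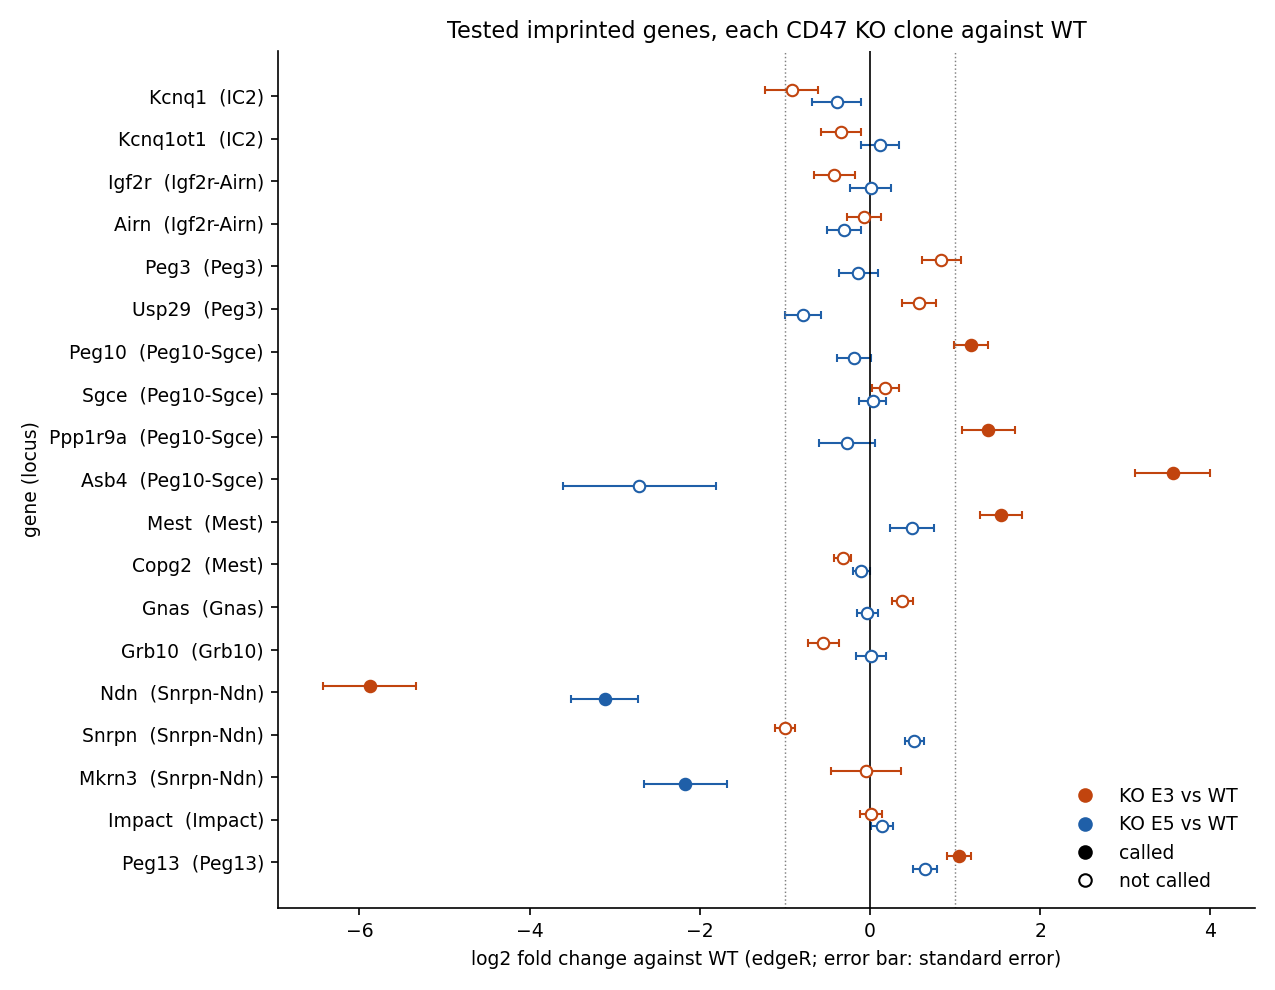
Log2 fold change of each tested imprinted gene against WT in clone E3 and clone E5, with its standard error from edgeR, by locus. Filled points were called, open points were not, and dotted lines mark a log2 fold change of -1 and 1. Ndn lies far to the left in both clones, while Asb4 lies at 3.56 in clone E3 and at -2.71 in clone E5. Both genes reached the filter's level in 1 line only, so nothing is read from their calls.

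The insulin-like growth factor branch of the list holds the growth factor Igf2, its neighbor H19, the receptor Igf2r, which clears IGF2 from the cell surface, and Grb10, an adaptor that dampens insulin and IGF signaling. Igf2 had 0 counts in every library and H19 had 0 to 3. Igf2r was at 414, 412 and 433 CPM in WT cells, at 385, 382 and 176 in clone E3 and at 370, 424 and 477 in clone E5, so that replicate 3 of clone E3 alone fell far outside the others. Its log2 fold change was -0.42 in clone E3 (adjusted p = 0.228), -0.13 without that library, and 0.01 in clone E5 (adjusted p = 0.974). Airn, the antisense RNA that silences the paternal Igf2r copy, was at 3.71 to 7.19 CPM over all 9 libraries and was not called. Grb10 averaged 203 ± 7.10 CPM in WT cells (SD, n = 3), 139 ± 32.6 in clone E3 and 205 ± 35.8 in clone E5. Its log2 fold change of -0.55 in clone E3 had an adjusted p of 0.0394, and -0.37 and 0.0217 without replicate 3, below the fold threshold both times. Slc22a3, the third gene of the Igf2r locus, had 0 counts.

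A list of 15 IGF receptors, substrates, mRNA-binding proteins and binding proteins was read beside this branch, and 10 were tested. edgeR called 0 of them in any comparison, where the share of all tested genes called in 1 direction ran from 2.69% to 7.52%, so that 0 of 10 is near the background. At an unadjusted p under 0.05 clone E3 had 1 higher (21.4% of all tested genes) and 2 lower (20%), clone E5 had 3 higher (15.3%) and 2 lower (18.3%), and the direct comparison of the clones 5 higher (20.3%) and 2 lower (22.5%), and DESeq2 called 0 against WT and 1, a lower one, between the clones. Igf1r, the receptor through which IGF2 signals, averaged 138 ± 4.26 CPM in WT cells (SD, n = 3), 128 ± 31.7 in clone E3 and 156 ± 12.1 in clone E5. The ligand Igf1 did not exceed 4 counts in any library.

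Distal chromosome 7 also carries a second control region, around Cdkn1c, a cyclin-dependent kinase inhibitor that restrains growth, and Phlda2, which limits placental growth. Cdkn1c and Ascl2 had 0 counts. Phlda2 had 5, 5 and 4 counts in WT cells, 3, 0 and 0 in clone E3 and 0, 0 and 0 in clone E5, too few to pass the filter. Kcnq1, a potassium channel gene, was at 0.381, 0.589 and 0.507 CPM in WT cells and at 0.320, 0.169 and 0.286 in clone E3. Its log2 fold change in clone E3 was -0.92 ± 0.31 (adjusted p = 0.0458) and passed the fold threshold only without WT replicate 1 (-1.08) or without replicate 1 of clone E3 (-1.11). Kcnq1ot1, the long antisense RNA inside Kcnq1 that silences the domain, was at 2.41 to 4.35 CPM over the 9 libraries and was not called. The pair overlaps over 118725 bases on opposite strands, and because the strand setting of the counting is not given in the sources used here, the counts of both are uncertain, as are those of Igf2r with Airn, of Mest with Copg2, of Gnas with Gnasas1, of Nap1l5 with Herc3 and of Nnat with Blcap.

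The Dlk1-Dio3 locus on chromosome 12 holds the Notch-family ligand gene Dlk1, the retrotransposon-derived Rtl1, the deiodinase Dio3 and the noncoding RNAs Meg3, Rian and Mirg. Its listed genes had at most 2 counts in any library. Dlk1, Rtl1, Dio3 and Meg3 had 0 counts in all 9 libraries, Rian had 1 count in 1 library, and Mirg had at most 2.

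The locus around Peg10 and Sgce on chromosome 6 held Peg10 and Ppp1r9a, both called higher in clone E3. A further call there, of Asb4, is described but not counted with them, because the gene reached the filter's level in clone E3 only. Peg10, a retrotransposon-derived gene needed for the placenta, starts 98 bases from Sgce, the epsilon-sarcoglycan gene, and the pair is read in opposite directions from a shared control region. The 98 bases between the starts, chr6:4747208-4747305 of GRCm39 on the plus strand, lie in no annotated exon and are shown because the 2 genes that start here behaved differently, with CG dinucleotides, the target of the methylation mark, in capitals.
Sgce-Peg10: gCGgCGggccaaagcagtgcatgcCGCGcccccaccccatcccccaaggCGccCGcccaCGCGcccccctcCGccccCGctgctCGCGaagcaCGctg
It holds 13 CG dinucleotides, which 8.91% of RefSeq promoter windows of that length directly before a gene start reach, and 1 match to the hexamer TGCCGC, the sequence that Zfp57 binds when methylated, searched on both strands.

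Peg10 was at 65.5, 59.3 and 67.2 CPM in WT cells, at 181, 165 and 93.9 in clone E3 and at 61.3, 56.6 and 51.0 in clone E5. Every library of clone E3 lay above every other library, with replicate 3 the lowest of its group. It rose by 1.19 ± 0.20 on the log2 scale in clone E3 (adjusted p = 0.00169; 1.43 without replicate 3), stood at -0.19 ± 0.20 in clone E5 (adjusted p = 0.58) and was lower by 1.38 ± 0.21 in clone E5 than in clone E3 (adjusted p = 0.000667; 1.61 without replicate 3). Sgce was at 16.9, 14.7 and 15.1 CPM in WT cells, at 17.3, 14.3 and 21.2 in clone E3 and at 13.3, 16.1 and 18.1 in clone E5. The 3 lines overlapped, at 0.18 in clone E3 and 0.03 in clone E5 on the log2 scale, so the gene on one side of the shared region rose in clone E3 and the gene on the other side was not called.

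Further along the same locus lie Ppp1r9a, which encodes the actin-binding protein neurabin, and Asb4, a substrate adaptor of a ubiquitin ligase, both expressed mainly from the maternal copy where they are imprinted. Ppp1r9a was at 1.24, 1.07 and 1.20 CPM in WT cells, at 4.18, 3.44 and 1.61 in clone E3 and at 0.840, 1.11 and 0.980 in clone E5. Clone E3 was again above both other lines, narrowly so in replicate 3, with a log2 fold change of 1.39 ± 0.31 (adjusted p = 0.00688; 1.70 without replicate 3) against WT and -1.66 ± 0.31 for clone E5 against clone E3 (adjusted p = 0.00276; -1.96 without replicate 3). Asb4 had 5, 2 and 8 counts in WT cells, 72, 49 and 58 in clone E3 and 0, 0 and 2 in clone E5. Clone E3 lay above both other lines. In CPM the other 2 did not overlap either, by a narrow margin, with WT cells at 0.0421 or more and clone E5 at 0.037 or less, each of these from a library with 2 counts, below the detection limit of 3. Over summed counts it was 12.1-fold higher in clone E3 than in WT cells (95% exact interval 7.14 to 22.1) and 91.9-fold higher than in clone E5 (25.1 to 764), intervals that cover counting error only. edgeR gave log2 fold changes of 3.56 ± 0.44 in clone E3 (adjusted p = 0.000274) and -6.28 ± 0.61 between the clones (adjusted p = 3.84e-05). Both counts of clone E5 came from its replicate 3, and over all alternatives the value between the clones ran from -8.89 to -5.80. Clone E5 against WT, at -2.71 ± 0.90, missed the threshold with an adjusted p of 0.0572. It passed it with DESeq2 (0.0416), with no filter on low counts (0.039) and without WT replicate 2 (0.0473), replicate 3 of clone E3 (0.0367) or replicate 3 of clone E5 (0.0352), while its log2 fold change ranged from -5.34 to -2.20. Asb4 did not pass the filter with only WT cells and clone E5 fitted. This comparison thus rests on its level in clone E3 for being made, and nothing is read from it.

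**Figure D3:**
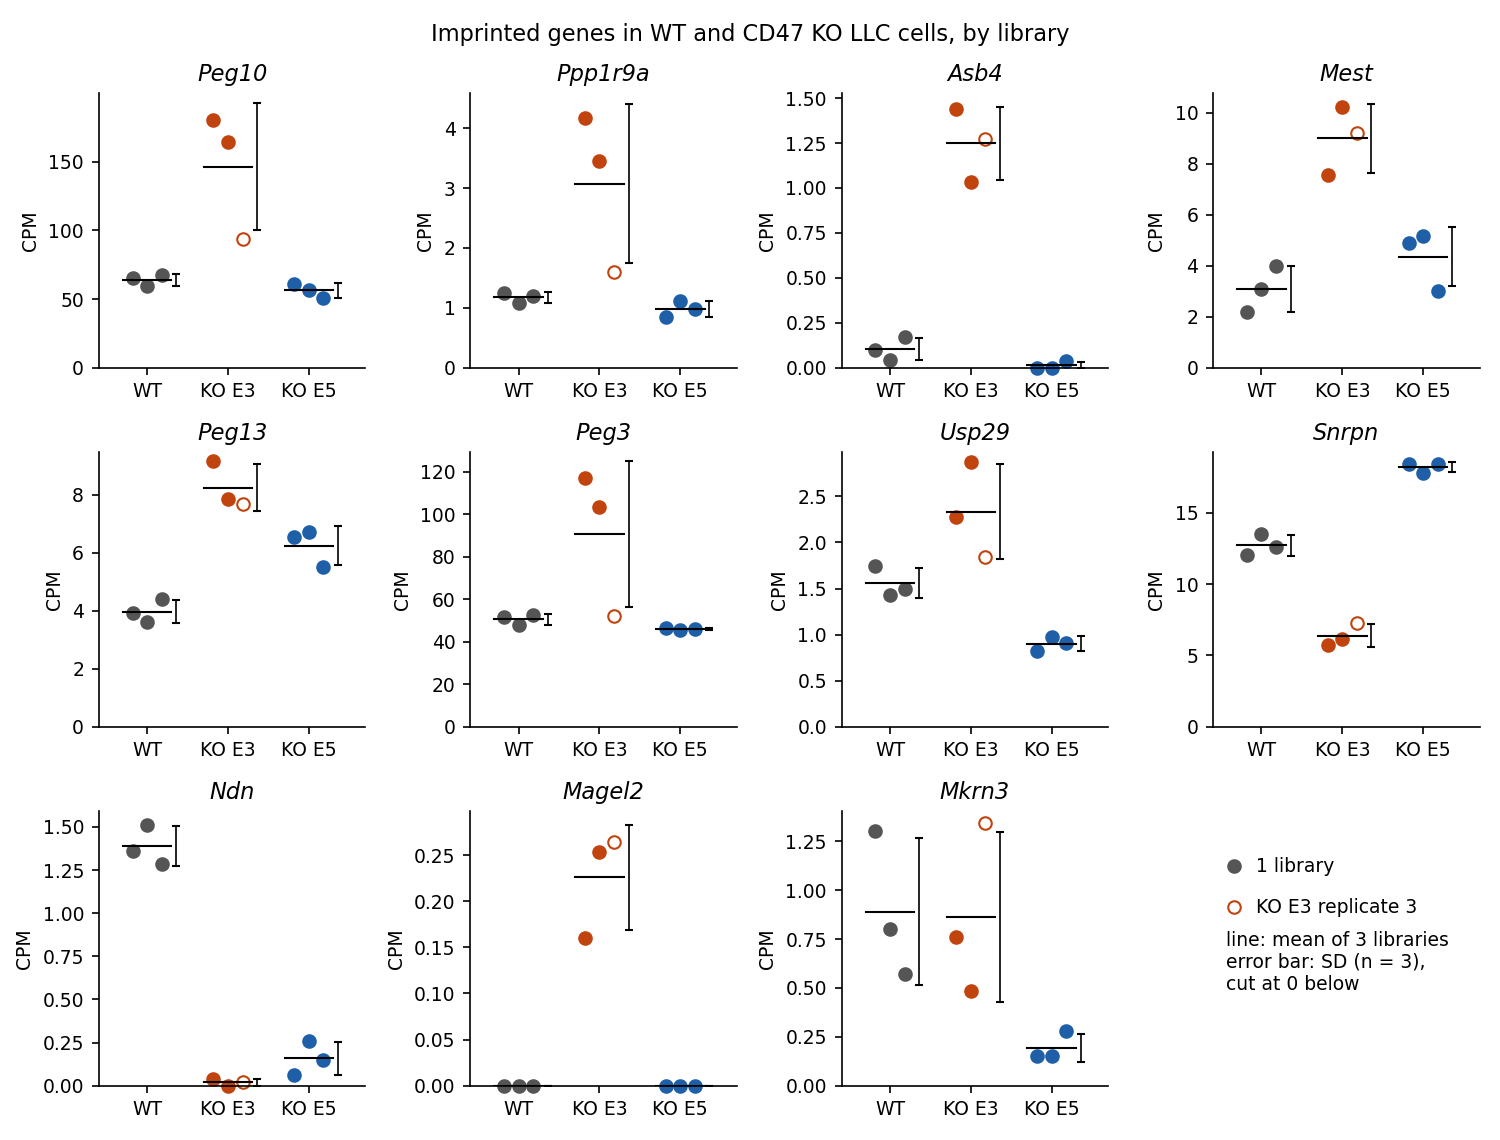
CPM of 11 imprinted genes in each library, on linear axes that start at 0. Filled points are libraries, the open point is replicate 3 of clone E3, lines are means and error bars SDs (n = 3). Magel2 is above 0 in clone E3 only, and Snrpn is lowest in clone E3 and highest in clone E5.

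Mest, which encodes a hydrolase-like membrane protein and is expressed from the paternal copy, rose in clone E3. It was at 2.16, 3.09 and 3.99 CPM in WT cells, at 7.54, 10.2 and 9.21 in clone E3 and at 4.87, 5.16 and 3.01 in clone E5. Clone E3 lay above both other lines, which overlapped. On the log2 scale it rose by 1.54 ± 0.25 in clone E3 (adjusted p = 0.00137), with 0.49 ± 0.26 for clone E5 (adjusted p = 0.209) and -1.05 ± 0.25 between the clones (adjusted p = 0.00919). The last of these fell under the fold threshold without replicate 2 of clone E3 (-0.95) or without replicate 3 of clone E5 (-0.84). Copg2, a coat protein gene whose 3′ end overlaps that of Mest by 912 bases, was much more abundant, at 83.6 ± 2.01 CPM in WT cells (SD, n = 3), 67.1 ± 6.52 in clone E3 and 78.1 ± 7.11 in clone E5. Its log2 fold change in clone E3 was -0.32 (adjusted p = 0.0411), opposite in sign to that of Mest.

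Peg3, a zinc finger gene, and Usp29, a ubiquitin protease gene, start 161 bases apart on chromosome 7 and are both expressed from the paternal copy. Peg3 was at 51.5, 47.7 and 52.6 CPM in WT cells, at 117, 103 and 51.9 in clone E3 and at 46.7, 45.5 and 45.9 in clone E5. Replicates 1 and 2 of clone E3 were above all other libraries, whereas replicate 3 sat within the WT range. For clone E3 its log2 fold change came to 0.84 ± 0.23 with that library (adjusted p = 0.0206) and 1.12 ± 0.07 without it (adjusted p = 4.67e-07), and between the clones it was -0.98 and -1.25. Scaling by the upper quartile also took Peg3 past the fold threshold between the clones, at -1.05. Usp29 was at 1.74, 1.43 and 1.50 CPM in WT cells, at 2.28, 2.87 and 1.85 in clone E3 and at 0.819, 0.976 and 0.906 in clone E5. The 3 lines did not overlap, with clone E3 highest and clone E5 lowest. The direct comparison of the clones gave a log2 fold change of -1.37 ± 0.21 (adjusted p = 0.000733), whereas 0.58 in clone E3 (adjusted p = 0.048) and -0.79 in clone E5 (adjusted p = 0.0243) stayed under the fold threshold. Zim1, the remaining gene of this locus, had at most 2 counts.

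The Snrpn-Ndn locus on chromosome 7, the mouse counterpart of the Prader-Willi region, is expressed from the paternal copy, and its genes did not share 1 pattern among the lines. Snrpn encodes a spliceosomal protein, Ndn and Magel2 encode MAGE-family proteins, and Mkrn3 a ubiquitin ligase that restrains the onset of puberty. Ndn, Magel2 and Mkrn3 lie side by side, with starts 30.4 and 43.1 kb apart, Peg12 is the next gene, and Snrpn lies 2206 kb away from Ndn. The RefSeq promoter windows of Magel2, Mkrn3 and Peg12, 250 bases before to 50 after the start on the gene's strand, are shown because these neighbors behaved differently, with CG dinucleotides in capitals. Each was taken from a RefSeq table of build GRCm38.p6 and found by an exact match in GRCm39, on the plus strand for Magel2 (chr7:62026477-62026776) and on the minus strand for Mkrn3 (chr7:62069852-62070151) and Peg12 (chr7:62114209-62114508). In the GENCODE annotation 19, 36 and 50 bases of them lie in the first exon of the gene and the rest outside exons.
Magel2: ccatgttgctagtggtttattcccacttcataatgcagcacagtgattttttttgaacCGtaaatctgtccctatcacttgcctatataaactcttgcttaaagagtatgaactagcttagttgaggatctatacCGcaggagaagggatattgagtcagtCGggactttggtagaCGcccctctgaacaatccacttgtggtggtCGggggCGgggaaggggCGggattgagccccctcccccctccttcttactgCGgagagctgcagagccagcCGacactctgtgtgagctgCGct
Mkrn3: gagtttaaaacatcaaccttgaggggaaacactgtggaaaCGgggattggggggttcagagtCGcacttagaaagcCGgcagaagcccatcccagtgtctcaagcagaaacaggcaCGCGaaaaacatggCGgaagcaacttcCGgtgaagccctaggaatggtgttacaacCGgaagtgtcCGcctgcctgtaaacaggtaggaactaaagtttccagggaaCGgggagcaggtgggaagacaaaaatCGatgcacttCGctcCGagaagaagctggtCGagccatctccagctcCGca
Peg12: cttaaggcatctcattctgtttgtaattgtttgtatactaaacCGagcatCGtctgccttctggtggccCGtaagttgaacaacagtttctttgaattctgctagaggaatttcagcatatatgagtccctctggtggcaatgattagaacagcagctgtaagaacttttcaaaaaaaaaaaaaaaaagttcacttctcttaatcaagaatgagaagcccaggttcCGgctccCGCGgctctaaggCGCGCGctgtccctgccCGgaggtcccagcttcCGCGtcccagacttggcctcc
They hold 10, 15 and 12 CG dinucleotides, counts that 43.5%, 34.6% and 39.6% of the 32851 RefSeq windows reach, and no TGCCGC. The window of Ndn, with 11, lies within an annotated Ndn exon. By CG content these windows are ordinary.

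Ndn had 68, 72 and 61 counts in WT cells, 2, 0 and 1 in clone E3 and 3, 12 and 8 in clone E5. The WT libraries were above all KO libraries, and clone E3 was at the detection limit. Over summed counts Ndn was 66.1-fold higher in WT cells than in clone E3 (95% exact interval 22.3 to 323) and 8.84-fold higher than in clone E5 (5.73 to 14.3). edgeR's log2 fold changes were -5.88 ± 0.55 in clone E3 (adjusted p = 5.23e-05) and -3.12 ± 0.39 in clone E5 (adjusted p = 0.000314). Ndn reached the filter's level in WT cells only, so with this pattern it could be called lower in a clone but not higher. Nothing is therefore read from these calls. The clones differed from each other at 2.76 ± 0.75 (adjusted p = 0.0176), which was lost without replicate 2 of clone E5 (2.24, adjusted p = 0.0676). With only the 2 clones fitted, Ndn did not pass the filter, so this comparison of the clones rests on its level in WT cells for being made.

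Magel2 had 0 counts in all WT libraries, 8, 12 and 12 in clone E3 and 0 in all libraries of clone E5. It was thus seen in clone E3 only, at 0.226 CPM on average, at least 3.63-fold higher than in WT cells when each WT library is set at 3 counts. It did not pass the filter and has no test in the fit of tested genes. With no filter on low counts it was called higher in clone E3 (adjusted p = 0.000785) and lower in clone E5 than in clone E3 (adjusted p = 0.000677).

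Mkrn3 had 65, 38 and 27 counts in WT cells, 38, 23 and 61 in clone E3 and 7, 7 and 15 in clone E5. WT cells and clone E3 overlapped and clone E5 lay below both, with a log2 fold change of -2.17 ± 0.49 against WT (adjusted p = 0.00999) and -2.12 ± 0.49 against clone E3 (adjusted p = 0.00803). Mkrn3 reached the filter's level in WT cells and clone E3 but not in clone E5. With this pattern it could be called lower in clone E5 but not higher, so nothing is read from these calls. Without replicate 3 of clone E3, the highest of its group, the value between the clones was -1.65 (adjusted p = 0.0116), and clone E3 against WT went from -0.05 to -0.52, not called either time. Peg12, a neighbor outside the list of 39, was at 4.57, 4.31 and 4.05 CPM in WT cells, at 5.16, 6.55 and 5.63 in clone E3 and at 0.409, 0.260 and 0.555 in clone E5. It fell in clone E5 as Mkrn3 did, at -3.38 ± 0.23 (adjusted p = 4.3e-06), and had a log2 fold change of 0.42 in clone E3 (adjusted p = 0.108). By counts within this stretch, Ndn was low in both clones, and Mkrn3 and Peg12 were low in clone E5. Magel2 was detected in clone E3 and not in WT cells or clone E5.

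Snrpn differed among the 3 lines. It was at 12.1, 13.5 and 12.6 CPM in WT cells, at 5.72, 6.13 and 7.30 in clone E3 and at 18.4, 17.8 and 18.4 in clone E5. The 3 lines did not overlap. Clone E5 stood above clone E3 by a log2 fold change of 1.52 ± 0.12 (adjusted p = 7.22e-06). Against WT, clone E3 at -0.996 ± 0.12 just missed the fold threshold (adjusted p = 0.000197), and clone E5 at 0.52 ± 0.11 (adjusted p = 0.00875). Clone E3 passed the threshold without WT replicate 1 (-1.04), without WT replicate 3 (-1.01), without its own replicate 3 (-1.10) and with no filter on low counts (-1.01). Snhg14, the long noncoding RNA that runs on from Snrpn on the same strand, averaged 3.87 ± 0.503 CPM in WT cells (SD, n = 3), 1.60 ± 0.210 in clone E3 and 4.55 ± 0.881 in clone E5. It was called lower in clone E3 (-1.27, adjusted p = 0.000772) and higher in clone E5 than in clone E3 (1.51, adjusted p = 0.00022), so clone E3 was lowest for both. The keratins, too, were lowest in clone E3 and highest in clone E5, and their part in this was not tested.

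**Figure D4:**
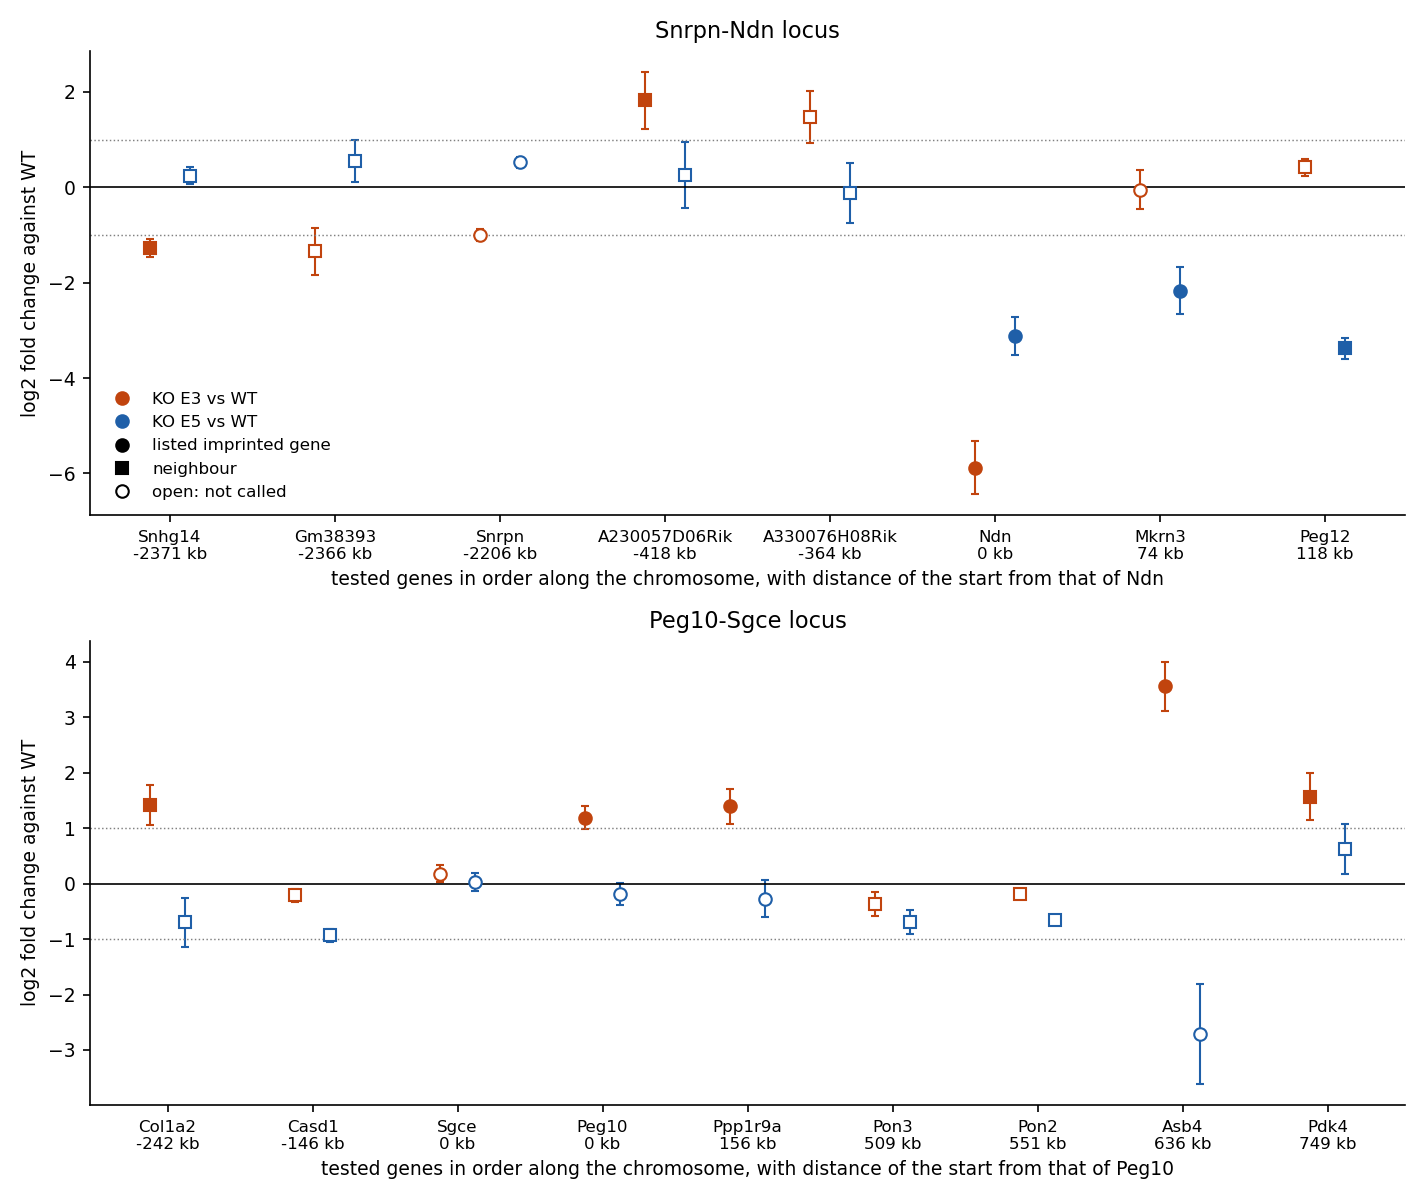
Log2 fold change against WT, with its standard error, of every tested gene of the Snrpn-Ndn and Peg10-Sgce loci in order along the chromosome, with the distance of each start from that of Ndn or Peg10 in kb. Circles are listed imprinted genes, squares their neighbors, and open symbols were not called. Ndn is low in both clones, Mkrn3 and Peg12 in clone E5, and Sgce stays near 0 next to Peg10, which is higher in clone E3. Ndn reached the filter's level in WT cells only and Mkrn3 in WT cells and clone E3 only, so nothing is read from their calls.

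Peg13, a noncoding RNA expressed from the paternal copy within the Trappc9 gene on chromosome 15, was at 3.91, 3.60 and 4.41 CPM in WT cells, at 9.18, 7.86 and 7.70 in clone E3 and at 6.53, 6.72 and 5.49 in clone E5. The 3 lines did not overlap, with WT cells lowest. Peg13 rose by 1.05 ± 0.14 on the log2 scale in clone E3 (adjusted p = 0.000406) and stood at 0.65 ± 0.14 in clone E5 (adjusted p = 0.00833), the second under the fold threshold. The first fell just under it without WT replicate 2 (0.98) or without replicate 1 of clone E3 (0.97). Trappc9, on the same strand over all 4725 bases of Peg13, was at 58.0 ± 2.38 CPM in WT cells (SD, n = 3) with log2 fold changes of 0.05 and 0.12, and reads of the 2 genes may not be separable.

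Of the remaining tested genes, Gnas, the gene of the stimulatory G protein alpha subunit with several imprinted transcripts, was the most abundant at 1008 ± 25.3 CPM in WT cells (SD, n = 3), 1307 ± 207 in clone E3 and 985 ± 60.7 in clone E5. Its log2 fold change in clone E3 was 0.38 (adjusted p = 0.0402). Counts per gene do not separate its transcripts. Its antisense RNA Gnasas1, also known as Nespas, was lower in clone E5, with 47, 46 and 46 counts in WT cells, 43, 43 and 41 in clone E3 and 24, 19 and 19 in clone E5 (-1.17 ± 0.22, adjusted p = 0.00361). The 2 genes overlap over 11117 bases on opposite strands, so with the strand setting unknown this call is uncertain too. Impact, a translational regulator gene, was at 25.3 to 37.5 CPM over the 9 libraries and was not called. Nnat, Nap1l5 and Dio3 had 0 counts, Zdbf2 at most 3, and the zinc finger gene Plagl1 4 counts in 1 library of clone E3 and at most 1 elsewhere. Kcnq1, Kcnq1ot1, Igf2r, Airn, Peg3, Sgce, Copg2, Gnas, Grb10 and Impact were called in none of the 3 comparisons. Their log2 fold changes ran from -0.92 to 0.84 in clone E3, -0.39 to 0.14 in clone E5 and -0.98 to 0.56 between the clones.

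Genes that set, keep or read imprints were taken from a list of 25, of which 23 were tested. In clone E3, 0 were higher and 1 was lower, in clone E5, 0 were higher and 1 was lower, and between the clones 0 were higher and 1 was lower, as with DESeq2. That 1 of 23 is 4.35%, near or below the 4.39%, 5.52% and 7.52% of all tested genes that were lower. At an unadjusted p under 0.05, edgeR had 3 higher and 8 lower in clone E3 (21.4% and 20% of all tested genes), 5 higher and 3 lower in clone E5 (15.3% and 18.3%), and 5 higher and 1 lower between the clones (20.3% and 22.5%). Zfp57, which binds methylated imprinting control regions and recruits Trim28, was at 27.0, 25.8 and 24.6 CPM in WT cells, at 21.9, 16.4 and 17.5 in clone E3 and at 7.91, 6.72 and 7.99 in clone E5. The 3 lines did not overlap, and clone E5 was lowest. Its log2 fold change came to -1.77 ± 0.13 in clone E5 (adjusted p = 8.36e-06), -0.47 ± 0.13 in clone E3 (adjusted p = 0.018) and -1.30 ± 0.13 between the clones (adjusted p = 5.07e-05). Dnmt3l, a cofactor of methylation in germ cells, had 106, 127 and 141 counts in WT cells, 26, 54 and 29 in clone E3 and 61, 53 and 78 in clone E5. It was called lower in clone E3 (-1.76, adjusted p = 0.0011), and in clone E5 it was at -0.99 (adjusted p = 0.0237) and was called without WT replicate 1 (-1.12) or without replicate 3 of clone E5 (-1.07). Dnmt1, Uhrf1, Trim28 and Ctcf averaged 471, 312.5, 433 and 147 CPM in WT cells, with log2 fold changes from -0.10 to 0.28 in clone E3 and from -0.08 to 0.28 in clone E5, and none of these 4 was called in either clone by edgeR.

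The hexamer TGCCGC was searched on both strands of the RefSeq promoter windows of the imprinted genes, of which 31 matched a window. It was found in 12 of their 47 windows (25.5%), belonging to 11 genes, and in 11.6% of all 32851 windows, a description of these windows and not of binding. The genes were Copg2, Grb10, Igf2, Meg3, Mest, Nap1l5, Nnat, Plagl1, Snrpn, Zdbf2 and Zim1. The median CG count was 13 in the windows of imprinted genes and 7 in all windows. Of the 11 genes, 7 were not tested. Of the 4 tested, Mest was called higher in clone E3 and Snrpn higher in clone E5 than in clone E3, and nothing is read from calls among so few genes.

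Another 37 genes imprinted in at least some mouse tissues were read as a wider list, of which 35 were found under the listed symbol and 22 tested. Nespas was not found under that symbol, and Gnasas1, given above, stands outside these counts. In clone E3, 1 of the 22 was higher (4.55%, against 5.43% of all tested genes), Qpct, and 4 were lower (18.2%, against 4.39%), Sfmbt2, Snhg14, Dcn and Xist. In clone E5, 0 were higher (2.69% of all tested genes) and 3 were lower (13.6%, against 5.52%), Sfmbt2, Peg12 and Dcn. In clone E5 against clone E3, 2 were higher (9.09%, against 3.49%), Snhg14 and Xist. There 3 were lower (13.6%, against 7.52%), Peg12, Qpct and Dcn. At an unadjusted p under 0.05 edgeR had 1 higher (15.3% of all tested genes) and 7 lower (18.3%) in clone E5, and DESeq2 called 0 higher and 3 lower. The wider list was chosen with earlier results of these data known, so nothing is read from how its shares compare with those of all tested genes. Sfmbt2, a polycomb-related gene needed for the placenta, had 52, 68 and 50 counts in WT cells, 3, 3 and 0 in clone E3 and 0, 0 and 2 in clone E5, which put both clones at the detection limit. It reached the filter's level in WT cells only, so that with this pattern it could be called lower in a clone but not higher. It was 27.9-fold higher in WT cells than in clone E3 over summed counts (95% exact interval 12.6 to 77.2) and 86.0-fold higher than in clone E5 (23.5 to 716). Qpct averaged 4.92 ± 0.325 CPM in WT cells (SD, n = 3), 10.0 ± 1.81 in clone E3 and 3.30 ± 0.212 in clone E5. Its call in clone E3, at 1.02, fell under the fold threshold without WT replicate 3 (0.97) or without replicate 3 of clone E3 (0.87).

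Neighbors were counted to see whether whole regions moved. Protein-coding and long noncoding genes within 500 kb of a listed gene, outside the list, came to 114 tested genes. Of these 10 (8.77%) were higher and 2 (1.75%) lower in clone E3, 3 (2.63%) higher and 5 (4.39%) lower in clone E5, and 5 (4.39%) higher and 10 (8.77%) lower between the clones, with median log2 fold changes of 0.06, -0.03 and -0.14. Over all tested genes the shares were 5.43% and 4.39%, 2.69% and 5.52%, and 3.49% and 7.52%. The neighbors counted include genes that reached the filter's level only in the line where they were highest. Tnfrsf26, called higher in clone E3, had 4, 6 and 3 counts in WT cells, 11, 10 and 17 in clone E3 and 11, 5 and 7 in clone E5. Nothing is therefore read from how these shares compare. In the Peg10-Sgce locus 2 of 5 tested neighbors were higher in clone E3, Pdk4 and the collagen gene Col1a2, and 0 were lower, and the median log2 fold change of the 5 was -0.19 in clone E3 and -0.69 in clone E5. Pdk4 and Col1a2 were at low levels, 0.246 and 0.291 CPM in WT cells, and each lost its call without some of the libraries, Pdk4 without WT replicate 2 (adjusted p = 0.0648), WT replicate 3 (0.059) or replicate 1 of clone E3 (0.0618), and Col1a2 without WT replicate 1 (0.0635) or WT replicate 2 (0.0695). The other 3 neighbors were not called in either clone, though Casd1, beside Sgce, was at -0.93 (adjusted p = 0.00041) and Pon2 at -0.65 (adjusted p = 0.000489) in clone E5, short of the fold threshold.

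In 4 loci where no listed gene was tested, neighbors were called against WT. Near H19 and Igf2, Lsp1 was at 1.78, 2.54 and 2.34 CPM in WT cells, at 4.46, 3.06 and 5.89 in clone E3 and at 0.970, 1.08 and 1.24 in clone E5. The 3 lines did not overlap, and it was called higher in clone E3 (1.01, adjusted p = 0.0102) and lower in clone E5 (-1.01, adjusted p = 0.0201). Both calls sat at the threshold: the first was lost without WT replicate 1 (0.87) or replicate 3 of clone E3 (0.76), with no filter or with the replicate block (0.99 each), and the second without WT replicate 2 (-0.91), WT replicate 3 (-0.98), or replicate 1 (-0.94) or 2 of clone E5 (adjusted p = 0.0674). R74862, 355 kb from this locus, lies nearer, at 52.5 kb, to that of Kcnq1, where genes were tested, and was called higher in clone E3 (1.07, adjusted p = 0.00294), but not without WT replicate 2 (0.97) or replicate 3 of clone E3 (0.90). Fuca2 near Plagl1 was called lower in clone E5 (-1.16, adjusted p = 2.82e-05). Phactr2, 76 kb from Plagl1, was lower in clone E3 and higher in clone E5, with 11, 15 and 13 counts in WT cells, 1, 2 and 1 in clone E3 and 86, 100 and 113 in clone E5 (-3.15 ± 0.42, adjusted p = 0.00043, and 2.91 ± 0.23, adjusted p = 1.26e-05). The 3 lines did not overlap. Begain, 385 kb from the nearest listed gene of the Dlk1-Dio3 locus, had 40, 32 and 19 counts in WT cells, 40, 25 and 30 in clone E3 and 0, 1 and 1 in clone E5. Its summed counts were 46.0-fold higher in WT cells than in clone E5 (95% exact interval 12.4 to 386). Herc3, which overlaps Nap1l5 on the other strand, and Fam13a beside it were higher in both clones. Herc3 averaged 2.51 ± 0.389 CPM in WT cells (SD, n = 3), 6.91 ± 1.56 in clone E3 and 7.58 ± 0.645 in clone E5 (1.46, adjusted p = 0.000331, and 1.59, adjusted p = 0.000196), while Nap1l5 itself had 0 counts throughout, and with the strand setting unknown both the calls of Herc3 and this 0 are uncertain. Fam13a was at 1.11 in clone E3 (adjusted p = 0.0171), a call lost without WT replicate 2 (adjusted p = 0.0766), WT replicate 3 (0.0605) or replicate 1 of clone E3 (0.061), and at 2.05 in clone E5 (adjusted p = 0.00062).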

How the data were processed

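Polyadenylated RNA of 9 LLC libraries was sequenced in paired-end mode from a directional kit. The counts are as deposited by the authors, raw and per gene, after quality checks (FastQC), trimming (Trimmomatic) and alignment by STAR to GRCm39. Which counter, strand setting and annotation release were used is not given in the sources at hand. Groups and replicate numbers came from the labels. Lines were compared with edgeR (4.0.16, in R 4.3.3) on TMM-scaled counts, with filterByExpr (minimum count 10, minimum total 15), all 9 libraries in 1 fit, and Benjamini-Hochberg adjustment over all 14593 genes tested. The test was first checked on simulated counts. SE is the size of a log2 fold change divided by the root of its F. Libraries held 44257404 to 55095219 counts. The detection limit is 3 counts per library, and it and exact (Clopper-Pearson) 95% intervals cover counting error only. Length ratios used log2(CPM + 0.1). Exon lengths were matched for 99.62% of tested genes. Promoter windows came from RefSeq (GRCm38.p6).

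Values in every library are given for Cd47 and for each imprinted gene called in at least 1 comparison, and untested or uncalled genes are named with ranges. From each further list up to 6 called genes by fold change against WT could be named, with Dnmt1, Uhrf1, Zfp57, Trim28, Ctcf and Igf1r always, and per locus up to 3 called neighbors within 500 kb, nearest first. Not every gene that this covers is reported. Library values of Igf2r, Sgce, Peg3, Kcnq1, Phlda2 and Magel2, and Igf1 and Trappc9, which this rule does not ask for, and the uncalled neighbors Casd1 and Pon2 were added after their values were seen. The imprinted genes and all lists were chosen with earlier results of these data known. Alternatives were DESeq2 (version 1.42.0), other scalings and filters, only the 2 groups compared, a replicate block, each library left out, and an adjusted p alone.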

Additional observations from a re-analysis of the deposited data

Results flagged for a closer look

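The clones were set directly against each other in the same fit, and 8 imprinted genes were called there. Asb4 and Ndn each reached the filter's level in 1 line only, clone E3 and WT cells respectively. Mkrn3 reached it in WT cells and clone E3 but not in clone E5. Nothing is read from the calls of these genes. For the other genes called there, the effect of 1 clone against WT differed from that of the other. In clone E5 relative to clone E3, the log2 fold change was -6.28 for Asb4, -2.12 for Mkrn3 (-1.65 without replicate 3 of clone E3), -1.66 for Ppp1r9a (-1.96 without it), -1.38 for Peg10 (-1.61 without it), -1.37 for Usp29 and -1.05 for Mest (-0.95 without replicate 2 of clone E3 and -0.84 without replicate 3 of clone E5, neither called). Snrpn was higher by 1.52 and Ndn by 2.76, the latter not called without replicate 2 of clone E5 (2.24, adjusted p = 0.0676) and not tested with only the 2 clones fitted, since it reached the filter's level in WT cells only. The adjusted p ran from 7.22e-06 for Snrpn to 0.0176 for Ndn. Groups of 3 libraries were not searched for single outlying values. What sets the clones apart was not tested.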

How the results depend on the processing

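Among tested imprinted genes, 879 pairs of a gene's comparison and an alternative stayed on the same side of the thresholds, 5 lost a call and 14 gained one, and no called gene changed sign. The number called in clone E3 against WT was 6, with 8 under no filter on low counts and 4 with at least 10 counts in every library. At an adjusted p under 0.05 alone it was 13 of the 19, where 4445 of all 14593 tested genes passed. In clone E5 against WT the number called was 2, and 5 at an adjusted p alone, where 3012 of all 14593 tested genes passed. It was 4 with no filter on low counts, where Asb4 and Phlda2 joined. It was 0 with at least 10 counts in every library, a filter that removes both Ndn and Mkrn3. Between the clones the number called was 8, and 5 with that filter and 9 with none. Leaving out 1 library at a time gave 6 to 9, 2 to 3 and 7 to 9. Some of these fits tested 20 imprinted genes rather than 19. One was that without replicate 1 of clone E5, with 7 called in clone E3 against WT. Part of a range can thus come from a gene added to the test. The replicate numbers did not pair the samples, since same-numbered libraries had correlations of deviations from -0.191 to 0.062, and with the replicate number as a block the numbers called stayed at 6, 2 and 8. Upper-quartile scaling moved the median of all genes in clone E3 from 0.01 to 0.09, and 9 were then called between the clones. Depth limits what can be said of Ndn in clone E3, Asb4 in clone E5 and Magel2 outside clone E3, which had at most 3 counts in each library. The causes of these shifts were not tested.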

Other observations

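Xist, the noncoding RNA that coats an inactive X chromosome, was on the wider list and had the largest fold change of any imprinted gene read here. It was at 231, 192 and 196.5 CPM in WT cells, at 0.440, 0.993 and 0.220 in clone E3 and at 190, 189 and 331 in clone E5. The libraries of clone E3 lay far below all others, which overlapped. Xist fell by 8.54 ± 0.44 on the log2 scale in clone E3 (adjusted p = 1.5e-06 by edgeR), stood at 0.20 in clone E5 (adjusted p = 0.69) and was higher by 8.74 ± 0.44 in clone E5 than in clone E3.

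The 458 other tested genes of the X chromosome had a median log2 fold change of 0.03 in clone E3, against 0.01 over 14120 autosomal genes. In clone E3, 14.2% of the X-linked genes were called higher and 4.15% lower, compared with 5.15% and 4.38% of the autosomal genes. In clone E5, where Xist was not called, 1.75% were higher and 12.2% lower, compared with 2.73% and 5.30%, while the median log2 fold change of the X-linked genes was 0.21, against -0.01 for autosomal genes, so the calls and the median differed in sign. Whether the X-linked genes and Xist moved together for a common reason was not tested.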
